A study of Mus musculus with 2 samples.

Results

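The genes described here are the D and E cyclins, the kinase subunit gene Cdk6 and the genes of CDK inhibitors, which together decide whether a cell in G1 goes on to copy its DNA or leaves the cycle. The rule names 10 genes that govern cell cycle exit when mitogens are taken away and uses no measured value, although earlier results of these data were known when it was written. A gene was taken where the platform annotation gives a probe set that gene's symbol and no other, which gave 9 of the 10 genes on 10 probe sets, out of 19938 genes on the array. Cdkn1a, the p21 gene, has a probe set that the annotation assigns to another gene as well and was not analysed here. All 9 genes lay above the detection floor by the mean of both arrays, at an intensity of 85.9 set from probe sets of olfactory receptors, which brain precursors hardly use, as did 11325 genes in all.

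The cells were neural precursors of the E11.5 mouse embryonic forebrain, strain Jcl:ICR, which the study first grew in FGF2 and EGF. They received either a control retrovirus or a retrovirus that carries HMGN1, a chromatin protein that binds nucleosomes, were replated 3 days later, and then spent 1 day without both growth factors. Both groups thus went through infection, replating and mitogen withdrawal, and they differ by the cargo of the virus. Total RNA of each group was labelled with biotin and hybridised to 1 whole-transcript array, so the comparison asks how added HMGN1 alters RNA levels as precursors start to differentiate, and it rests on 2 arrays.

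With 1 array per virus there is no replicate and no test, and every difference below describes these 2 RNA samples. Whether the infected cells came from separate cultures or animals, and how many cells carried the virus, is not given in the labels. A difference is log2(intensity + 16) with the HMGN1 virus minus the same with the control virus, and the offset of 16 understates the change of dim genes. As a yardstick, probe sets that read the same gene disagreed in their differences by an SD of 0.0891 (683 genes with at least 2 detected probe sets), while the differences of all detected genes centred on a median of 0.027 with an SD of 0.111. Pairs of probe sets with identical readings are included in the yardstick and make its SD smaller. This yardstick misses whatever differs between whole cultures, RNA extracts or arrays. In whole-culture RNA, fewer cells of a type and less RNA per cell cannot be told apart. Hmgn1 itself read 230 under the control virus and 348 under HMGN1, a difference of 0.57.

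In a dividing precursor, mitogen signals raise D cyclins, which activate the kinases Cdk4 and Cdk6. These phosphorylate the retinoblastoma protein and its relatives, which frees E2F factors to switch on the E cyclins and the genes of DNA synthesis, and the E cyclins with Cdk2 then carry the cell into S phase. INK4 inhibitors such as the product of Cdkn2c block Cdk4 and Cdk6, whereas Cip/Kip inhibitors such as the products of Cdkn1b and Cdkn1c act mainly on Cdk2 complexes. In the embryonic forebrain this balance sets how long G1 lasts and when precursors stop dividing, and Cdkn1b and Cdkn1c are known for holding newborn neurons out of the cycle.

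Ccne1 and Cdkn2c are textbook targets of E2F, and their promoters from RefSeq (build GRCm38.p6) are shown for that reason, with that of Cdk6, the remaining measured gene whose window held an E2F core. The table held 6 of the 10 genes in 9 windows. Ccnd1, Ccnd2, Ccne2 and Cdkn1c had no entry in it, so their promoters were not searched. The windows below are the 250 bases before the annotated start of the gene on its own strand, written 5′ to 3′. Capitals mark each match to an E2F core, TCCCGC or TGGCGC, read on both strands, and adjoining or overlapping matches run together.

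Ccne1, chr7:38107491-38107740, minus strand: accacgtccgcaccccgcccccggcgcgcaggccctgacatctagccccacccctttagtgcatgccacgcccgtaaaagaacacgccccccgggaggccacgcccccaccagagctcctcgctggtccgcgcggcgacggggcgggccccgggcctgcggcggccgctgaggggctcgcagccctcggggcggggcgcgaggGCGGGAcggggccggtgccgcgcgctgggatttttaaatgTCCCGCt

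Cdkn2c, chr4:109666757-109667006, minus strand: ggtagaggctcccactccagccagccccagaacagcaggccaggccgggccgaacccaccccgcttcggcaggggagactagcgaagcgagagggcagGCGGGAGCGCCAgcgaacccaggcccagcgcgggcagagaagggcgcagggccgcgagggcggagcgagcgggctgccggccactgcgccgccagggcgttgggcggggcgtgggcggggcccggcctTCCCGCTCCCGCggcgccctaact

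Cdk6, chr5:3343643-3343892, plus strand: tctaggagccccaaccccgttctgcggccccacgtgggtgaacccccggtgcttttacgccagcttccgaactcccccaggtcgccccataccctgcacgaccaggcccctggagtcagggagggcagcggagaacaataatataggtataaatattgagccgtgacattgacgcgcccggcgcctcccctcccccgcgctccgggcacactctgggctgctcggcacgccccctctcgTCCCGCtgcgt

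The Ccne1 window held 2 matches, of which the nearer one began 7 bases before the start, directly after an AT-rich stretch. The Cdkn2c window held 4 and the Cdk6 window 1, while a second start of Cdkn2c further downstream, the single window of Cdkn1b and both windows of Ccnd3 held 0. A core match was present in 4 of the 9 windows, the fourth being a window of Cdkn1a, a gene not measured here, and in 23.4% of all 32851 windows of this length in the table, so a match of this kind is common. The full E2F sites TTTCCCGC, TTTCGCGC, TTTGCCGC and TTTGGCGC were in none of the 9 windows, against 1.86% of all windows. At so low a share, 9 windows would rarely hold a full site, so its absence sets these genes apart in no way. The shorter cores were searched after the full sites gave no match. A match is a description of letters and does not show binding.

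Most of the 9 genes differed little between the viruses, and the Ccne2 difference was larger than those of the others. Of the 9, 5 were lower and 4 higher with the HMGN1 virus, where 38.4% of all detected genes were lower and 60.1% higher. Their median difference was -0.045, against 0.027 for all detected genes. None of the 9 reached a log2 difference of 0.32, the size used here for counts, either way on its brightest probe set, a size that 0.53% of detected genes passed downward and 0.521% upward. None reached 1.5-fold, which 0.0706% of detected genes passed downward and 0% upward. The plot of intensities on both arrays shows the pairs, and 5 of the 9 genes lay within 1 SD between probe sets of 0, as did 59.1% of all detected genes.

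**Figure D1:**
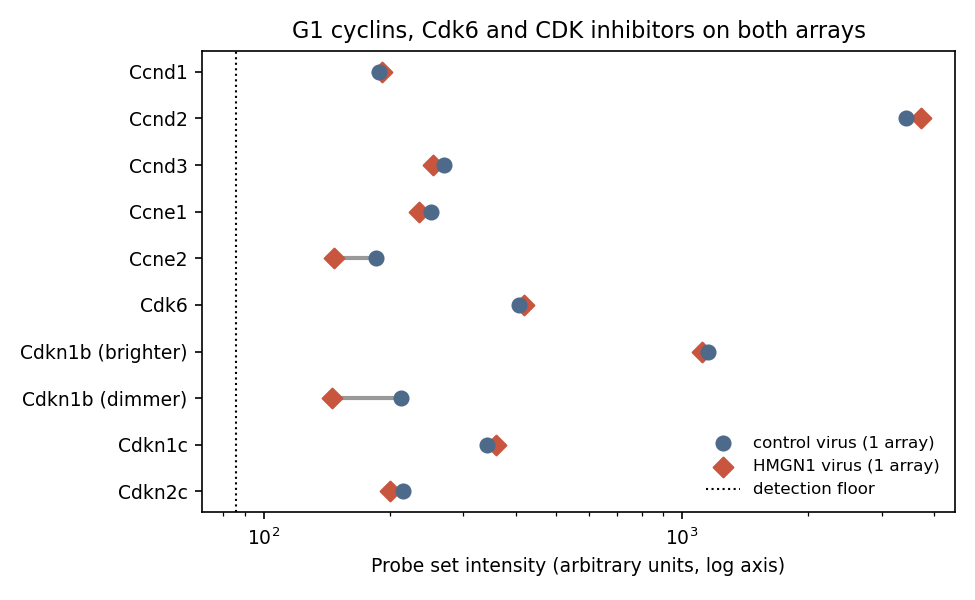
Intensity of each probe set of the G1 cyclins, Cdk6 and the CDK inhibitors (log axis, arbitrary units) with the control virus (circles) and the HMGN1 virus (diamonds), 1 array each, with the detection floor of 85.9 as a dotted line. The points of a pair nearly touch for most probe sets, and the widest gaps belong to Ccne2 (186 and 147) and the dimmer Cdkn1b probe set (213 and 146).

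The D cyclins, which carry the mitogen signal, stayed near their control values and did not share a direction. Ccnd2, the D cyclin known for its use in cortical precursors, read 3429 under the control virus and 3719 under HMGN1, a difference of 0.12. It was higher with HMGN1, by 1.31 times the SD between probe sets, and 18.1% of detected genes differed upward by as much or more. Ccnd1, a classic target of growth factor signalling, read 189 and 192, a difference of 0.023. Ccnd3, the remaining D cyclin, read 269 and 254, a difference of -0.076, and was thus the only one of the 3 with a lower reading. The gap between Ccnd2 and Ccnd3 was 0.19, or 1.53 times the SD that a gap between 2 probe sets would have on the yardstick above. The sign of Ccnd1 is not settled by these arrays, since it turned to -0.0037 with differences centred on the median of detected genes and to -0.0060 with the intensity trend removed.

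Cdk6, the kinase subunit that D cyclins activate, read 408 under the control virus and 418 under HMGN1, a difference of 0.034. This is close to the median of all detected genes, and it turned to -0.0037 with the intensity trend removed and to -0.018 with the gene span trend removed. Cdk4, the other kinase subunit that D cyclins activate, read 5270 and 5192, a difference of -0.021.

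The E cyclins, which act with Cdk2 at entry into S phase, were both lower with the HMGN1 virus, as 38.4% of all detected genes were. Ccne2 read 186 under the control virus and 147 under HMGN1, a difference of -0.31, or 1.24-fold lower with the offset of 16 added. Without the offset, its HMGN1 reading was 0.79 times its control reading. It had the lowest value of the 9 genes, 3.45 times the SD between probe sets, and 71 of the 11325 detected genes (0.627%) lay at or below it. Ccne1, its close relative, read 251 and 235, a difference of -0.090, which is 1.01 times that SD. Of all detected genes, 13.8% lay below Ccne1. The gap between the E cyclins was 0.22, or 1.73 times the SD of such a gap. Ccne2 is represented by 1 probe set, so no second reading of it was at hand. Its difference stayed below 0 in each of the 7 alternatives that recompute it, between -0.34 and -0.24, and reached the size of 0.32 in 4 of them. Some of these could not alter the sign. The mean over 1 probe set returns the same value, and a change of offset keeps the sign of any difference. In the plot of difference against level, Ccne2 lies at the lower edge of the cloud of genes, just inside the line at 0.32.

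**Figure D2:**
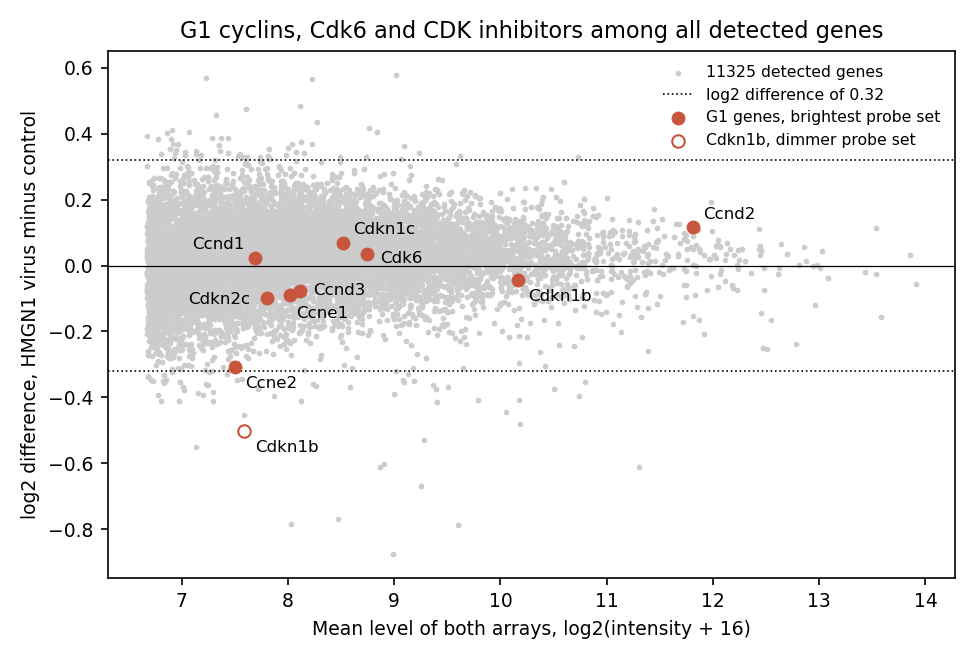
Mean level of both arrays, log2(intensity + 16), against the log2 difference, HMGN1 virus minus control virus, for 11325 detected genes (grey), the brightest probe set of each of the 9 G1 genes (filled) and the dimmer Cdkn1b probe set (open). Dotted lines mark a log2 difference of 0.32 either way. Ccne2 (-0.31) lies at the lower edge, the dimmer Cdkn1b probe set (-0.50) below it, and the other 8 genes lie between -0.099 and 0.12.

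The inhibitor genes went both ways, and Cdkn1b gave unlike readings on its 2 probe sets. On its brighter probe set Cdkn1b, the p27 gene, read 1150 under the control virus and 1114 under HMGN1, a difference of -0.045. Its dimmer probe set read 213 and 146, a difference of -0.50, or 1.42-fold lower with the offset of 16 added. Without the offset, the HMGN1 reading of this probe set was 0.68 times its control reading. Both probe sets were above the floor on both arrays, yet the difference exceeded the spread between probe sets only on the dimmer one.

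The dimmer Cdkn1b probe set was among the 12 lowest of 12513 detected probe sets with a single gene symbol. The gap of 0.46 between the Cdkn1b probe sets was uncommon as well: among 511 genes with 2 detected probe sets, 3 genes, Cdkn1b included, had a gap of that size or more, and the median gap was 0.064. Pairs with identical readings are among these genes and lower the median gap. Which part of the transcript each probe set reads is not given in the tables used here, so whether the readings belong to different transcript ends or forms was not tested. Taken as the mean of both probe sets, Cdkn1b differed by -0.27 in place of -0.045.

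**Figure D3:**
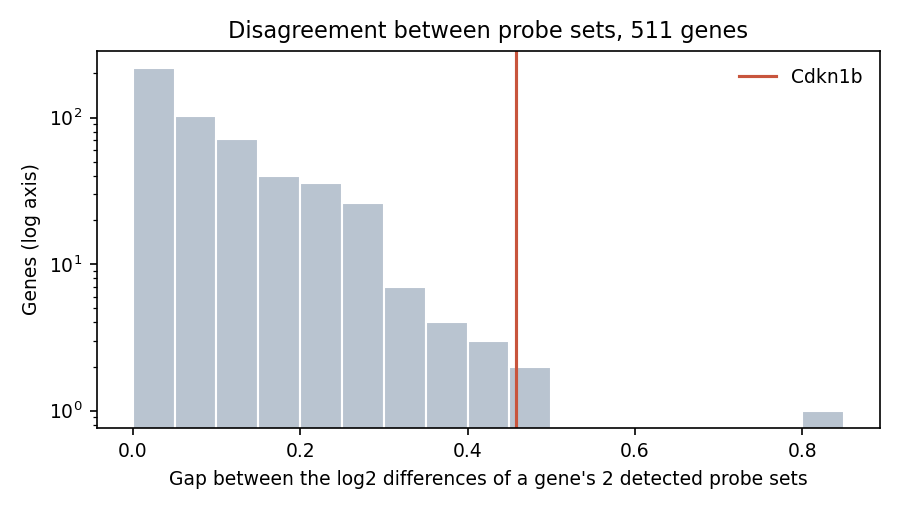
Gap between the log2 differences of the 2 detected probe sets of a gene, for 511 genes (bars, log axis for the number of genes). The gap of Cdkn1b, 0.46, is the vertical line, and 3 genes including Cdkn1b lie at or beyond it.

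Cdkn1c, the imprinted p57 gene and a Cip/Kip inhibitor like Cdkn1b, read 341 under the control virus and 359 under HMGN1, a difference of 0.069. Cdkn2c, the p18 gene of the INK4 family, read 215 and 200, a difference of -0.099. The first value lies within 1 SD between probe sets of 0 and the second 1.11 times that SD below it.

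The remaining genes of the G1 to S circuit were read from a list of 32 partners and regulators, of which 31 were detected. Of these, 16 were higher and 15 lower, beside 60.1% higher and 38.4% lower of all detected genes. A log2 difference of 0.32 was reached by 0 of them, beside 0.53% of all detected genes downward and 0.521% upward. The list median was 0.014, against 0.027 for all detected genes. Without Cdkn2a, which was above the floor only on the HMGN1 array, 15 were higher and 15 lower, with a median of 0.0053. The kinase subunit Cdk2, the partner of the E cyclins, read 374 under the control virus and 321 under HMGN1, a difference of -0.21. Fzr1, an activator of the ubiquitin ligase that keeps G1 cells from early S-phase entry, differed by -0.21 as well. These were the lowest values of the list, and Lin54 (0.25), a DNA-binding subunit of the complex that represses cycle genes in resting cells, and Mnat1 (0.24), a subunit of the kinase that activates CDKs, were the highest. Mnat1 read 86.0 with the control virus, right at the floor.

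The 3 genes of the retinoblastoma family, which holds E2F in check, read slightly higher, as 60.1% of all detected genes did. Rb1 read 1263 under the control virus and 1381 under HMGN1, a difference of 0.13, Rbl1 (p107) differed by 0.12 and Rbl2 (p130) by 0.076. The activating E2F genes split: E2f1 read 262 and 234 (-0.15), E2f2 114 and 99.1 (-0.17), and E2f3 354 and 399 (0.17). A second, dimmer probe set of E2f3 gave 0.026. The repressive E2f4 differed by -0.098, and E2f5, E2f6, E2f7 and E2f8 by -0.017 to 0.042.

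Among other regulators, Skp2, which marks the p27 protein for destruction, differed by -0.099 and its cofactor Cks1b by 0.16. Mycn, a driver of precursor division, differed by 0.17 and Myc by 0.029, the latter -0.0087 with the intensity trend removed. Of the other INK4 genes Cdkn2a read 83.5 and 95.7 around the floor, Cdkn2d differed by -0.010 and Cdkn2b was under the floor (69.8 and 67.5). Tfdp1, a dimer partner of E2F, gave -0.065 on its brighter and 0.11 on its dimmer probe set, so its direction is not settled.

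Other genes that E2F switches on went both ways. Of 20 listed E2F targets of S-phase entry, 18 were detected, 11 were higher and 7 lower, and the median was 0.013, so the split was near that of all detected genes (60.1% higher and 38.4% lower). That list shares Ccna2 with the one above. Its highest values were those of the thymidylate synthase Tyms (307 and 386, 0.32) and the replication licensing gene Cdc6 (0.17), and its lowest, on brightest probe sets, those of Mcm5 (-0.078), a helicase subunit, and Ccna2 (-0.065), the cyclin of S phase. A dimmer probe set of the thymidine kinase Tk1 gave -0.28, where its brighter one gave -0.047. The 6 subunits of the MCM helicase lay between -0.078 and 0.067. Before rounding, Tyms lay just under the size of 0.32. Of 15 detected mitotic genes 6 were higher and 9 lower, to be set beside the shares just given, with a median of -0.020, from the mitotic kinases Plk1 (-0.17) and Cdk1 (-0.13) to the spindle motor Kif11 (0.14) and Cdc20 (0.097). No test sets these lists apart from the rest of the genes.

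Target genes of p53 and response genes of FGF and EGF were read on 2 more lists. Their counts are to be set beside 60.1% of detected genes higher and 38.4% lower. Of 13 detected p53 targets, a group to which Cdkn1a belongs, 5 were higher and 8 lower, with a median of -0.037. They ran from the antiproliferative gene Btg2 (-0.30) and the kinase Plk2 (-0.21) to Trp53inp1 (0.12) and the cyclin gene Ccng1 (0.18). Of 11 detected response genes of FGF and EGF, 2 were higher and 8 lower, with a median of -0.070. The feedback inhibitors Spry4 (-0.24) and Spred2 (-0.12) were lowest on brightest probe sets, and the transcription factor Etv5 (0.072) and the phosphatase Dusp6 (0.12) highest. The transcription factor gene Etv1 differed by -0.070 on its brighter probe set and by -0.32 on its other one (1477 and 1183). Dusp4 had the same value in both columns, as had 749 of the 28944 probe sets in all. On its brightest probe set, none of the detected genes on these lists reached a log2 difference of 0.32.

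**Figure D4:**
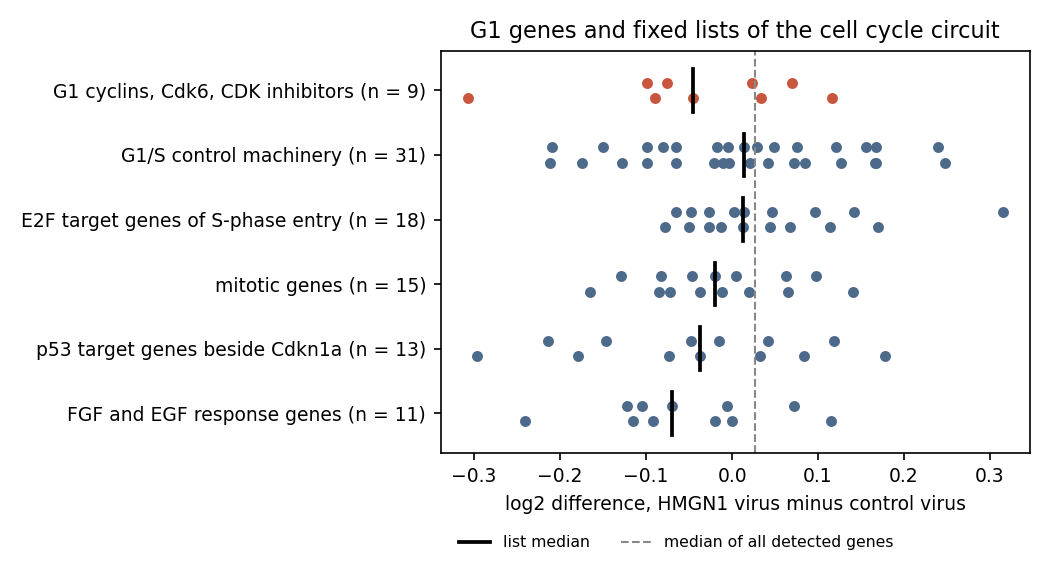
The log2 difference, HMGN1 virus minus control virus, of each detected gene among the 9 G1 genes and on 5 fixed lists (points), with list medians (black bars) and the median of all detected genes, 0.027 (dashed). The 9 G1 genes have a median of -0.045, the G1/S list one of 0.014 and the FGF and EGF response list the lowest one, -0.070.

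Cell type markers were read beside these genes. All 10 listed precursor markers were detected, with a median difference of -0.0029 and a summed intensity of 24121 under the control virus and 24032 under HMGN1. Of these, 5 were higher and 5 lower, beside 60.1% higher and 38.4% lower of all detected genes. Sox1 (-0.35) and Prom1 (-0.24) were lowest and Slc1a3 (0.15) and Pax6 (0.11) highest. Of the astrocyte markers 7 of 8 were detected (median 0.15, summed intensity 4139 and 4529), from Aldoc (-0.072) and Aldh1l1 (0.044) to Aqp4 (0.32) and Gfap (406 and 615, 0.58). The astrocyte list shares Slc1a3 with the precursor list, and its median is the value of Slc1a3. Of the neuron markers 10 of 11 were detected (median 0.065), and of 9 analysed oligodendrocyte lineage markers all 9 (median 0.094). A log2 difference of 0.32 was reached upward by 2 astrocyte, 2 oligodendrocyte lineage, 0 neuron and 0 precursor markers, beside 0.521% of all detected genes. Downward, 1 precursor marker and 0 of the other 3 kinds reached it, beside 0.53% of all detected genes. Of markers of cells foreign to the lineage, 0 of 7 endothelial, 0 of 2 analysed erythroid, 2 of 9 microglial and 5 of 9 mesenchymal ones were detected. Of all 19938 genes, 11325 were detected. The part of shifts in cell types in the differences of the cyclin and inhibitor genes was not tested.

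Gene span, the distance from the annotated start to the end of a gene, moved with the differences on this pair of arrays: the class of the shortest genes, which holds Cdkn1c, had a median of -0.027 and that of the longest, which holds Cdk6, one of 0.053. Ccne2 spans 14.3 kb, and the 1088 detected protein-coding genes in its span class, of 10 equal classes, had a median difference of 0.018, against its own -0.31. Cdkn1b, with 5.12 kb, and Cdkn2c, with 5.88 kb, fell in a class with a median of 0.0044. Ccnd3 spans 94.6 kb and lay at -0.076 where its class had a median of 0.055. With that trend removed, 6 of the 9 genes lay below 0 in place of 5, as did 49.8% of all detected genes in place of 38.4%. Ccne2 then stood at -0.33.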

How the data were processed

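RNA of 2 groups, 1 array each, was measured on 28944 probe sets. The authors deposited 1 intensity per probe set and array on a linear scale, from 3.08 to 18892, with medians of 101 and 98.8. The sources used here do not give the background correction, normalization or probe summary, and no further scaling was applied. GEO's platform annotation gave 1 symbol to 21789 probe sets, several to 1621 and none to 5534, and 21698 of the first matched the RefSeq table of GRCm38.p6 by gene number. Probe sets of several genes, Cdkn1a's among them, were left out.

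Each gene took its brightest probe set, and values were log2(intensity + 16). A gene was detected where its mean over both arrays reached the floor, which was set where 95 percent of 1035 probe sets of olfactory receptors, a family of little use in brain, lie below it. With no residual degrees of freedom no test was run, and the number of arrays limits the precision. Alternatives were quantile normalization, centring, loess removal of the intensity trend (span 0.3), offsets of 1 and 64, probe set means, other floors and a 1.5-fold size. Removal of the gene span trend and lists of genes above the floor on each array were added after seeing the data.

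The genes, lists and size were chosen with earlier results of these data known. Named are all 9 genes, Hmgn1, genes of the G1/S list, and the 2 highest and 2 lowest detected genes of the other 4 pathway lists and of the precursor and astrocyte markers. Other markers are given by counts. Tk1, Etv1, Dusp4 and the MCM genes as a group were picked with their values in view. Code ran in Python 3.11.15 with statsmodels 0.14.6 and was tested on simulated data.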

Additional observations from a re-analysis of the deposited data

How the results depend on the processing

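No paired analysis was possible because the series has 1 array per virus, and for the same reason no replicate could be left out. The count of the 9 genes with a log2 difference of -0.32 or below, 0, became 1 with differences centred on the median of detected genes, 1 with the intensity trend removed, 1 with an offset of 1 and 1 with the gene span trend removed. That gene was Ccne2 each time, at -0.33, -0.33, -0.34 and -0.33, and it lies close to the size at -0.31. Of all detected genes, 0.733%, 0.627%, 0.715% and 0.425% reached that size downward in these alternatives, in the same order, in place of 0.53%. The count at 0.32 or above was 0 in each alternative run. The number of the 9 genes with a difference below 0 ran from 5 to 7, and their median from -0.080 to -0.041. This number was 7 with the intensity trend removed, where 49.8% of all detected genes lay below 0 in place of 38.4%. With the gene span trend removed it was 6, and that share was 49.8% as well. Centring also gave 6, and it sets the median of all detected genes to 0. The G1/S list median changed sign in 4 alternatives and that of the E2F targets in 2, within -0.023 to 0.029. For these the cause was not tested, apart from centring and the change of offset, which act by construction. As the mean of their probe sets, 4 of the genes described shifted beyond the spread between probe sets, namely Cdkn1b to -0.27, Etv1 to -0.19, Tk1 to -0.16 and Fbxw7, with a change of sign, from 0.084 to -0.042. The mean takes in probe sets under the floor. The second Fbxw7 probe set was under it (29.3 with the control virus and 24.3 with HMGN1), whereas those of Cdkn1b, Etv1 and Tk1 were detected. Signal near the floor limits genes such as Mnat1.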
